A study of Mus musculus with 2 samples.

Results

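Dentate granule cells are the principal neurons of the dentate gyrus, and 10 genes known to mark them in the mouse were examined for open chromatin: Prox1, C1ql2, C1ql3, Stxbp6, Dsp, Calb1, Pdzd2, Il16, Lct and Tdo2. The list was drawn up by name, as known markers of the cell type, but with earlier results of these data known. All 10 were found among the 21938 protein-coding genes of the GENCODE M21 annotation. For each gene, DNase I peaks and footprints were collected over the gene body and 50 kb on either side, and a promoter was taken as 1 kb to each side of every annotated start of transcription. DNase-seq maps open chromatin by cutting nuclei with DNase I and sequencing the cut ends. A peak is a stretch cut more often than its surroundings, and a footprint is a short protected stretch within open DNA where a bound protein may shield the bases.

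Granule cells receive the entorhinal input to the hippocampus and pass it through their mossy fibres to the pyramidal cells of area CA3. Their identity depends on the homeobox factor Prox1, and mossy fibre synapses are organised in part by secreted C1q-like proteins. The promoters of genes used by many cell types are often rich in CpG and widely open, whereas the regulatory DNA that sets one neuron class apart often lies in introns or between genes.

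The series held 1 group: hippocampal tissue of male B6CASTF1/J mice at 14 days of age, with 2 biological replicates. These mice are first-generation hybrids between C57BL/6 and CAST/EiJ, and no gene was altered and no treatment was given according to the labels. The labels call the tissue a layer of the hippocampus without naming the layer, mention 3 males, and give both replicates one donor identifier. Whether the replicates came from different animals is thus not known, and an SD over the 2 need not measure spread between animals. With no second group no difference could be tested over samples, so each value is a description, set beside the same value over all protein-coding genes or all shared sites.

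Replicate 1 had 115072 peaks and replicate 2 had 95711, with 285181 and 244137 footprints. The authors' value per peak has no stated unit; its median was 0.594 in replicate 1 and 0.734 in replicate 2. The read depth is unknown. Values of peaks of different width therefore cannot be put on a common scale, and the ranks and percentiles below use the values as deposited. Markers of neurons (Tubb3, Syt1, Snap25, Rbfox3) had promoter peaks in each replicate at 4 of 4 genes, with mean values of 1.90 to 3.15. The forebrain markers Emx1, Emx2 and Lhx2 had them as well, with mean values of 1.5 to 3.40. Astrocyte markers had one at 4 of 5 genes (1.43 to 2.75), oligodendrocyte markers at 2 of 5 (Olig1, 1.59, and Olig2, 1.12), microglia markers at 1 of 5 (Csf1r, 0.837), endothelial markers at 1 of 5 (Kdr, 0.649), hindbrain markers at 2 of 5 (En2, 0.737, and Hoxb4, 0.611) and liver markers at 1 of 4 (Alb, 0.188). Some markers of each list were thus open, those of hindbrain and liver included. For comparison, the share over the whole protein-coding set was 64.3%. The neuron, forebrain and astrocyte lists lay above that share, and the oligodendrocyte, microglia, endothelial, hindbrain and liver lists below it. The counts therefore cannot show which cell types were present. In bulk samples fewer cells of a type and less open chromatin per cell cannot be told apart.

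Sequences are shown for 8 stretches that the results below return to: the promoters of Prox1, C1ql2, C1ql3, Calb1 and Pdzd2, and sites away from promoters at C1ql2, Pdzd2 and Il16. They come from the RefSeq copy of the reference genome GRCm38.p6, the mm10 build, which is the C57BL/6J sequence, so the CAST/EiJ allele that every animal also carried is not shown. Each is written 5' to 3' on the strand of its gene, and capitals mark bases inside a footprint of both replicates.
Prox1 promoter, chr1:190170664-190170693, minus strand: agcggagccctCAGCTGAgagagcgctggg
C1ql2 promoter, chr1:120340381-120340581, plus strand: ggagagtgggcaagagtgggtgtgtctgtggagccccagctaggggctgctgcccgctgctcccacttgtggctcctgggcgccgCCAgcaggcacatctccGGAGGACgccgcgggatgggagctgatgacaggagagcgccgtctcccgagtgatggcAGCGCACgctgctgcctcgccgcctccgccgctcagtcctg
C1ql2 upstream site, chr1:120323373-120323572, plus strand: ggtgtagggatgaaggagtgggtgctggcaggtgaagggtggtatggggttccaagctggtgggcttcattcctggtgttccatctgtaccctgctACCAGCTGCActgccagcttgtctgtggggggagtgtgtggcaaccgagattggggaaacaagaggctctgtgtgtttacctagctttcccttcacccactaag
C1ql3 promoter, chr2:13011731-13011760, minus strand: gctgcAGAGAGATGCCAAAGCGGCTcccct
Calb1 promoter, chr4:15881061-15881263, plus strand: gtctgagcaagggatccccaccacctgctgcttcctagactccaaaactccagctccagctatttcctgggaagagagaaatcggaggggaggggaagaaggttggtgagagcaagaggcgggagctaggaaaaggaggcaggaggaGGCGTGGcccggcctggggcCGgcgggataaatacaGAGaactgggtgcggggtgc
Pdzd2 promoter, chr15:12739969-12740200, minus strand: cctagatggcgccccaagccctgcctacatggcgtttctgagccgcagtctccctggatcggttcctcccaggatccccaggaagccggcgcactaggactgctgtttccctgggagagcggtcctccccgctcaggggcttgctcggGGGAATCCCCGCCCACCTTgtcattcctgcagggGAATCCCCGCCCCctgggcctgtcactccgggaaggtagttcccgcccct
Pdzd2 intron site, chr15:12366239-12366438, minus strand: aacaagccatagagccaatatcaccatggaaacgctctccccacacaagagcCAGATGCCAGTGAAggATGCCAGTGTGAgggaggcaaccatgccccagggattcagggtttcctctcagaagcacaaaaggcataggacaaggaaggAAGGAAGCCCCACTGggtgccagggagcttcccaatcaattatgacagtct
Il16 intron site, chr7:83668801-83669020, minus strand: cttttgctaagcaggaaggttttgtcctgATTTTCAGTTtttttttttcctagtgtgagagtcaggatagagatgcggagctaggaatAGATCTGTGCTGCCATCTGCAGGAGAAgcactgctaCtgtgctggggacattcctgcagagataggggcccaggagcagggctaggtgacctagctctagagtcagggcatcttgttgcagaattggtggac

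Open promoters were called in each replicate at 9 of the 10 granule cell genes, against 64.3% of all protein-coding genes. Only Lct had a peak in 1 replicate, and no member lacked one in both. The peaks were mostly modest. Over the 9 genes the median of the mean promoter value was 1.41, against 2.87 over the 14116 protein-coding genes with a peak in both replicates, and 8 of the 9 lay below that median. Pdzd2 was the exception. The count rests on all annotated transcripts: with the start sites of the basic transcript set alone it was 7 of 10 (62.6% of all genes), since the peaks of Pdzd2 and Il16 lay at transcripts outside that set. With the start sites of protein-coding transcripts alone it was 8 of 10 (62.9%), and in the shorter and stricter peak list 7 of 10 (59.3%).

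**Figure D1:**
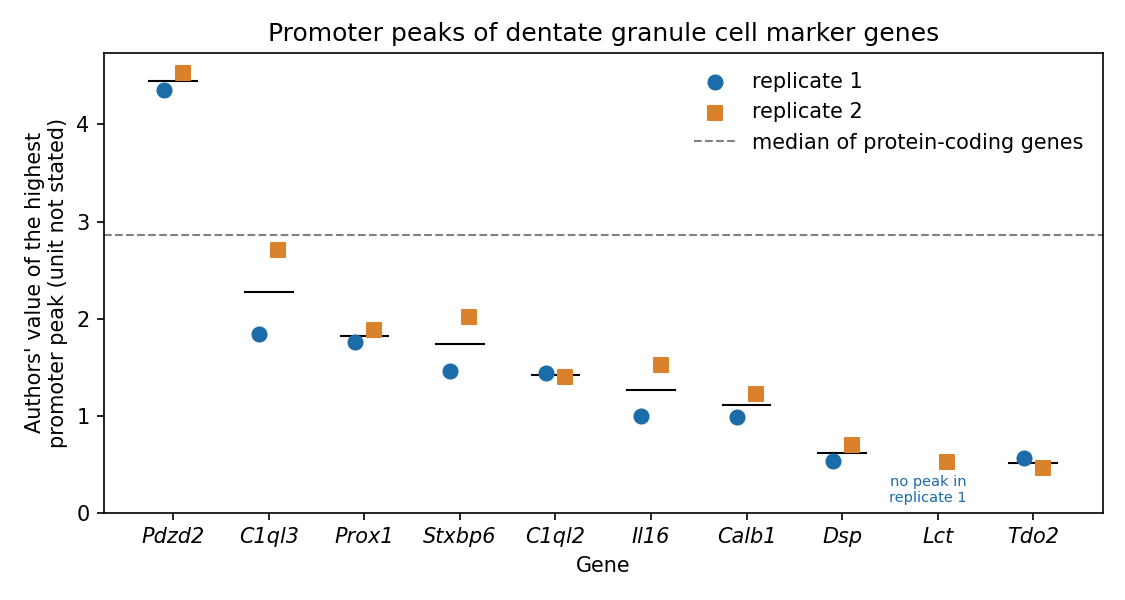
The vertical axis gives, for each gene, the value the authors gave its highest promoter peak, in replicate 1 (circles) and replicate 2 (squares), with black bars for the mean of both; the unit is not stated. The dashed line is the median of protein-coding genes whose promoter was open in each replicate (2.87), and of the 9 genes with both values only Pdzd2 had its mean above it.

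Prox1, the homeobox transcription factor that granule cells need to form and to keep their identity, lies at chr1:190118035-190170714 on the minus strand. Its promoter peak stood at 1.76 in replicate 1 and 1.88 in replicate 2 (mean 1.82 ± 0.0866, SD, n = 2), at the 30.2nd percentile of genes with a peak in both. The replicates were close, and both peaks covered the start sites of the transcripts Prox1-202 and Prox1-203 in DNA with an observed to expected CpG ratio of 0.794. The opposite-strand noncoding gene Prox1os also starts in this window, so the peak cannot be assigned to one of the pair. The start site of Prox1-201, at position 190169399, was called in replicate 2 (0.807) but not in replicate 1. The promoter footprint common to both replicates lay over the letters CAGCTG at chr1:190170677-190170682, in capitals in the Prox1 sequence above.

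Around Prox1 there were 8 shared sites outside promoters, where a shared site is the joint span of overlapping peaks of both replicates. That is 5.24 per 100 kb, the 92.2nd percentile of all protein-coding genes. Only 1 of them lay inside Prox1 itself, and no other protein-coding gene lay in the 152.68 kb examined. The highest, chr1:190076680-190076960, was 93.9 kb downstream of the gene start, between genes, with values of 0.898 and 0.889 in replicates 1 and 2. A further 3 lay upstream in introns of Prox1os, 1 of them 42.5 kb away. All 8 sites were of similar height, with means of 0.596 to 0.893. A footprint in each replicate was found at 7 of the 8, against 77.8% of all shared sites outside promoters. Prox1 also had 7 peaks seen in replicate 2 alone and 1 seen in replicate 1 alone.

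C1ql2 and C1ql3 encode secreted C1q-like proteins that sit at mossy fibre synapses and recruit kainate receptors there. The small C1ql2 gene (chr1:120340582-120343174, plus strand) had a promoter value of 1.44 in replicate 1 and 1.39 in replicate 2 (mean 1.41 ± 0.0293, SD, n = 2), at the 22.0th percentile. The C1ql3 promoter (gene at chr2:13003457-13011806, minus strand) stood at 1.85 in replicate 1 and 2.71 in replicate 2 (mean 2.28 ± 0.609, SD, n = 2), at the 39.0th percentile. C1ql3 was the second highest of the members, although its replicates stood apart, and the window also holds the start of the noncoding model Gm37356. Its CpG ratio was low, at 0.456, against 0.721 at C1ql2 and a median of 0.755 for genes whose promoter was open in each replicate.

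The surroundings of this pair differed most among the members. C1ql2 had 6 shared sites outside promoters, or 5.85 per 100 kb (94.7th percentile), the highest density of the 10 genes. The strongest of them, chr1:120323121-120323580, was 17.2 kb upstream between genes and reached 1.18 in replicate 1 and 1.16 in replicate 2, close to the height of the C1ql2 promoter itself. Another site, 12.7 kb upstream, had 1.03 and 0.807. C1ql3 had 0 shared sites outside promoters, as did 20.1% of all protein-coding genes: its 4 shared sites were 2 at its own promoter and 2 in the gene body at start sites of the noncoding model Gm37811. In the C1ql2 locus 10 peaks were seen in replicate 1 alone, with values of 0.255 to 0.559, and 0 in replicate 2 alone.

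Footprints at these promoters covered few bases in both replicates. At the highest C1ql3 promoter site 43 bases lay in footprints of both, including the run of 20 bases drawn in capitals in the C1ql3 line. At the C1ql2 promoter 17 bases did, in 3 separate runs within the stretch upstream of the start site. The C1ql2 upstream site had 1 footprint common to both replicates, over a CAGCTG at chr1:120323471-120323476.

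Stxbp6, which encodes the SNARE-binding protein amisyn, and Calb1, which encodes the calcium buffer calbindin, serve vesicle release and calcium handling. Stxbp6 (chr12:44852484-45074709, minus strand) had 2 promoter regions, at the gene start and 61.2 kb into the gene. At its main start sites the peak stood at 1.22 in replicate 1 and 2.01 in replicate 2, and at the start of the noncoding transcript Stxbp6-203, inside the gene, at 1.46 and 1.48. The highest promoter peak was therefore the inner one in replicate 1 and the outer one in replicate 2. The inner region had a CpG ratio of 0.25 around its start, against 0.745 at the CpG-richest of the main starts. In that inner region a CAGATG at chr12:45013367-45013372 lay in footprints of both replicates.

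Of 8 shared sites outside promoters at Stxbp6, 5 lay in its introns and 3 downstream. The density of 2.48 per 100 kb was at the 61.6th percentile. The highest mean was at the intron site chr12:44993501-44993800, 81.1 kb from the gene start, with 1.05 in replicate 1 and 1.32 in replicate 2. Another intron site, chr12:45030801-45031173, 43.7 kb from the gene start, had 1.10 in replicate 1 and 0.758 in replicate 2. The median of the 8 means was 0.397, and the sites at and beyond the far end of the gene were lower than 0.5 in both replicates.

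Calb1 (chr4:15881264-15908064, plus strand) had a promoter value of 0.990 in replicate 1 and 1.22 in replicate 2 (mean 1.11 ± 0.165, SD, n = 2), at the 15.9th percentile. The 203 bases upstream of its start held 12 bases in footprints of both replicates, the longest run being ggcgtgg. Outside promoters the locus had a single shared site, chr4:15895339-15895720, overlapping an exon, at 0.368 in replicate 1 and 0.367 in replicate 2 and with no footprint in replicate 2. The tallest site within 50 kb of Calb1 was not its own: the promoter of the DNA repair gene Nbn reached 4.30 and 4.98.

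Dsp encodes desmoplakin, a plaque protein of desmosomes best known from epithelium and heart. At Dsp (chr13:38151294-38198577, plus strand) the highest promoter peak was 0.530 in replicate 1 and 0.693 in replicate 2 (mean 0.612 ± 0.115, SD, n = 2), the 5.37th percentile, and these were different, neighbouring peaks. Its promoter was nevertheless the richest in CpG of the members, with a ratio of 0.874, at the 85.1st percentile of all protein-coding genes. At the site over the start, the values were 0.488 and 0.693. That site and the one beside it also lay within 1 kb of a start of the gene model Gm10129, so neither can be assigned to Dsp alone. The 2 intron sites were lower still: the higher one, chr13:38162741-38162945, had 0.368 in replicate 1 and 0.611 in replicate 2. By contrast the promoter of the neighbouring gene Snrnp48, a component of the minor spliceosome, stood at 2.08 and 2.80.

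Pdzd2, a large protein with several PDZ domains, had both the highest promoter and the largest number of shared sites among the members. The gene spans chr15:12359711-12739924 on the minus strand, 380.214 kb. Its promoter peak reached 4.36 in replicate 1 and 4.53 in replicate 2 (mean 4.44 ± 0.125, SD, n = 2), the 76.2nd percentile. This peak lay at the farthest upstream start, that of the retained-intron transcript Pdzd2-206. The start of Pdzd2-201, the transcript of the basic set, 147 kb further in, had no peak in either replicate and no base with a cut rate under a false discovery rate of 0.05. At the Pdzd2-206 start 1206 and 1325 of 2001 bases were under that rate in replicates 1 and 2.

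The Pdzd2 promoter site held 58 bases in footprints of both replicates, the most of any member's promoter site. A word of 12 bases, GGAATCCCCGCC on the gene's strand, occurred 3 times in it, at chr15:12739939-12739950, chr15:12740008-12740019 and chr15:12740040-12740051. The last pair can be read in the Pdzd2 promoter sequence above, almost wholly in capitals. In replicate 1 footprints covered 7, 12 and 12 of the 12 bases of the copies, in the order given, and in replicate 2 they covered 11, 11 and 12. Each copy overlapped a match to the Sp/Klf letters GGGCGG on the opposite strand. Some word of 12 bases was present in 3 or more copies in 2.37% of all 24438 shared promoter sites, so such repeats were uncommon but not particular to Pdzd2. The repeat was found by looking at the footprints of this promoter.

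Across its long body Pdzd2 had 15 shared sites outside promoters, and 1 more lay upstream. Together they made 3.33 per 100 kb (75.4th percentile). The 3 highest stood together in the last 16.1 kb before the 3' end. The intron site chr15:12366061-12366440 had 2.51 in replicate 1 and 2.45 in replicate 2, at the 96.0th percentile of all 45361 shared sites outside promoters. An intron site at chr15:12371241-12371540 had 1.49 and 1.61, and one overlapping an exon at chr15:12375621-12375840 had 1.46 and 2.00. No other member had a site in the top 10% of such sites. In the first of them 41 bases were in footprints of both replicates, among them a CAGATG at chr15:12366381-12366386, shown in the Pdzd2 intron sequence.

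**Figure D2:**
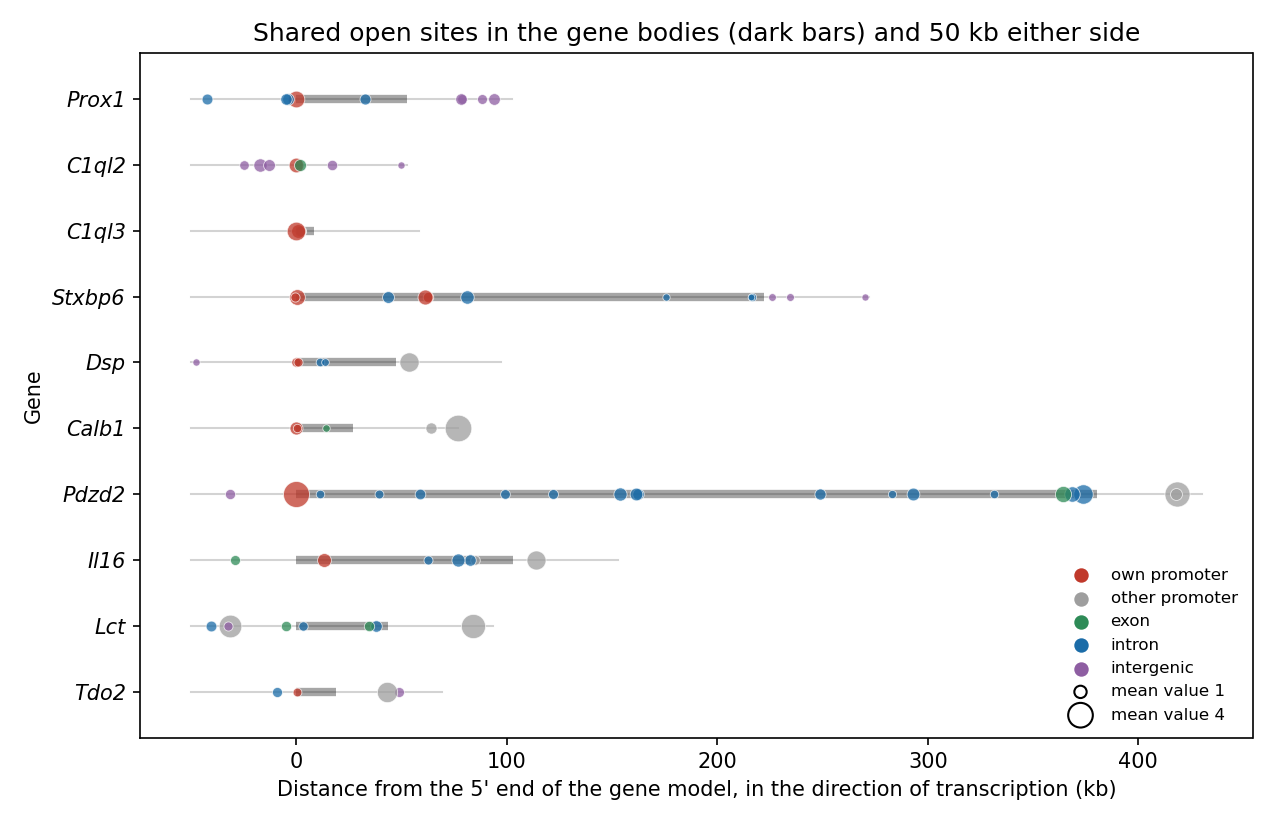
Each row is 1 gene drawn in the direction of transcription, with the horizontal axis in kb from the 5' end of the gene model, the dark bar for the gene body and the thin line for 50 kb either side. Circles are the 81 shared sites, with area proportional to the mean of the 2 replicate values and colour for the place, and Pdzd2 holds 19 of them, while C1ql3 holds 4, all at promoters.

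Il16, Lct and Tdo2 are known mainly from other tissues. Il16 encodes the precursor of a cytokine, with a long PDZ-containing form known from neurons; Lct encodes lactase of the intestinal brush border; Tdo2 encodes tryptophan dioxygenase, an enzyme best known from liver. All have nonetheless been used as granule cell markers in the mouse. The promoters of Lct and Tdo2 were among the lowest here, while that of Il16 (mean 1.26) stood above those of Calb1 (1.11) and Dsp (0.612).

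Il16 (chr7:83642825-83745726, minus strand) had a promoter value of 0.997 in replicate 1 and 1.52 in replicate 2 (mean 1.26 ± 0.373, SD, n = 2), the 18.9th percentile, at the start of Il16-202. None of the other 5 start sites had a peak in either replicate, and both starts of the basic set, Il16-201 and Il16-203, had no base under the false discovery rate of 0.05. Of its 4 shared sites outside promoters 3 were in Il16 introns. The highest, chr7:83668801-83669020, had 1.21 in replicate 1 and 1.04 in replicate 2. It held 38 bases in footprints of both replicates, including a stretch at chr7:83668910-83668921 that matches the CTCF core letters and overlaps a CAGATG at chr7:83668914-83668919.

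Lct (chr1:128284756-128328318, minus strand) was the member without a promoter peak in replicate 1; replicate 2 had one of 0.522 at the start of Lct-201. In the 2001 bases around that start, 0 bases were under the false discovery rate of 0.05 in replicate 1, against 91 in replicate 2, where the lowest rate was 0.00817. The CpG ratio around that start was 0.187. Outside promoters, however, the locus had 6 shared sites, or 4.18 per 100 kb (85.3rd percentile), 3 of them in Lct. The highest, the intron site chr1:128290281-128290640, stood at 0.863 in replicate 1 and 0.889 in replicate 2. Of the other 3, 2 lay in neighbouring genes, the replication helicase gene Mcm6 and the aminoacyl-tRNA synthetase gene Dars. The promoters of Ubxn4 (3.33 and 4.34) and Mcm6 (3.09 and 3.65) were the tallest sites of the locus.

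Tdo2 (chr3:81957090-81976202, minus strand) reached 0.559 in replicate 1 and 0.457 in replicate 2 at its promoter (mean 0.508 ± 0.0722, SD, n = 2), the 3.16th percentile and the lowest of the 9. It was absent from the shorter peak list in both replicates. No shared site outside promoters lay in the gene. Its 2 such sites within 50 kb, 1 of them in an intron of the ion channel gene Asic5 at chr3:81985118-81985386, had means of 0.643 and 0.662. The promoter of the cathepsin gene Ctso, 43.4 kb from the Tdo2 start, stood at 2.79 and 2.63.

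The 10 loci together held 81 shared sites, of which 15 were at a member's own promoter, 12 at the promoter of another gene, 6 in exons, 32 in introns and 16 between genes. The tallest site of the locus was a promoter of another gene at 5 loci (Dsp, Calb1, Il16, Lct and Tdo2) and the member's own promoter at the other 5. The median of the mean values was 1.24 over the 15 own promoter sites, against 2.41 over the 12 sites at promoters of other genes and 1.49 over all shared promoter sites. With promoters included, the members had a median of 7 shared sites per locus, against 6 for all protein-coding genes. Away from promoters the members had a median of 5 sites per locus, against 2 for all protein-coding genes, and 2.26 sites per 100 kb, against 1.85. At least 1 such site was found at 9 of the 10 loci, against 79.9% of all protein-coding genes, and inside the gene body at 8 of the 10, against 33.9%. Gene length bears on these counts: the members had a median length of 45.4 kb, against 17.4 kb for all protein-coding genes. Per 100 kb, 7 of the 10 were above the median of all genes.

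**Figure D3:**
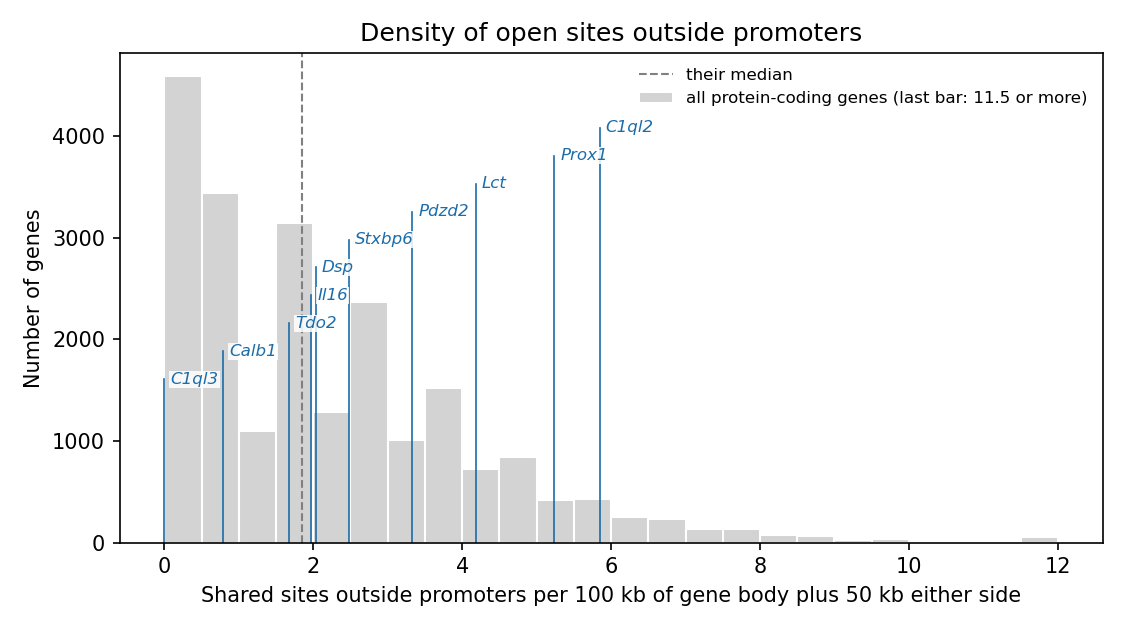
Grey bars count all protein-coding genes by their shared sites outside promoters per 100 kb of the gene body plus 50 kb either side, and the dashed line marks their median (1.85). Blue lines mark the 10 granule cell genes, which reach from 0 at C1ql3 to 5.85 at C1ql2; line heights carry no value.

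The sites away from promoters were of ordinary height. The 54 member sites had a median of 0.689, against 0.717 for all shared sites outside promoters, and 24 of them were above that value. Footprints of both replicates were found at 37 of the 54, or 68.5% (exact 95% binomial interval 54.4 to 80.5, counting error only), against 77.8% of all 45361. In replicate 1 alone the share was 92.6%, against 89.0% of all, and in replicate 2 alone 72.2%, against 84.3%. The lower share was thus seen in replicate 2 and not in replicate 1. At own promoter sites footprints of both replicates were found at 14 of 15, against 83.9% of all shared promoter sites.

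Letters known to be bound by transcription factors were searched on both strands in the 200 bases at the middle of each site, and a match is a description of the letters only. The E-box CAGATG, a form bound by Neurod factors, was present in 18 of the 54 member sites outside promoters (33.3%, against 26.3% of all such sites), spread over 7 genes. The E-box CAGCTG was present in 7 (13.0%, against 21.1%), and the CTCF core letters, in 6 (11.1%, against 17.7%). The CTCF share was 25% in the shorter peak list and 6.38% over all peaks of replicate 1 outside promoters, without replicate 2. The Sox letters CATTGT were present in 8 (14.8%, against 9.24%). In footprints widened by 5 bases on each side the share was 18.5% for CAGATG and 1.85% for Sox. A match in a footprint is a narrower measure than a match in 200 bases. Shares over all sites are not given for the shorter list, the single replicate or the widened footprints. In the 200-base windows the share over all sites lay inside the exact 95% binomial interval of the member share for each of these 4 motifs. Within footprints of both replicates, CAGATG was found at 3 of the 54 sites (5.56%, against 4.14%), CAGCTG at 2 (3.70%, against 2.74%) and the CTCF core at 5 (9.26%, against 12.5%). A CTCF core match at chr1:120327867-120327878, upstream of C1ql2, directly follows a CAGATG, and both lay in footprints of both replicates. This site, and the Il16 intron site where a CAGATG and a CTCF core match overlap, are counted under both motifs.

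At the 15 own promoter sites the Sp/Klf letters GGGCGG were inside footprints of both replicates at 1 (6.67%, against 22.9% of all shared promoter sites), that of Pdzd2. In the middle 200 bases they were present at 5 (33.3%, against 41.4%). CAGATG was present there at 5 (33.3%, against 10.7%), but inside footprints of both replicates at 1 (6.67%, against 1.68%). In the same 200 bases CAGCTG was present at 2 (13.3%, against 13.8%), the CTCF core at 1 (6.67%, against 12.4%) and Sox at 0 (against 4.88%). The 15 sites are few and not independent, as 4 of them lie at Stxbp6, and no interval is given for their shares. The other letters searched were TGANTCA (AP-1), TGACGTCA (CRE), GTTGCCA (Rfx), TAATTA (homeodomain), GCGTGGGCG (Egr), CCGGAAG (Ets), ATGCAAAT (Pou) and the consensus letters of Mef2, Nfi and Nrf1. Of these, AP-1 was found at 2 of the 54 member sites outside promoters (3.70%, against 7.14% of all such sites) and homeodomain at 2 (3.70%, against 3.90%). Rfx, CRE and Mef2 were found at 1 each (1.85%), against 4.91%, 0.331% and 2.45% of all such sites in that order. The remaining 5 were found at 0, against 0.117% to 1.45% of all such sites.

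The replicates ranked the member sites alike, with Spearman's rho of 0.894 across the 81 sites, against 0.939 across all 69799 shared sites; sites share their libraries and are not independent. The median ratio of replicate 2 to replicate 1 was 1.05 at member sites, against 1.14 at all shared sites. It was 1.07 at own promoter sites, 1.26 at the promoters of other genes in the loci and 0.994 outside promoters, against 1.23 at all shared promoter sites and 1.07 at all outside promoters. Of all peaks in the loci, 40 of 128 in replicate 1 (31.3%, against 34.7% of all peaks) and 26 of 111 in replicate 2 (23.4%, against 21.6%) had no counterpart in the other replicate.

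**Figure D4:**
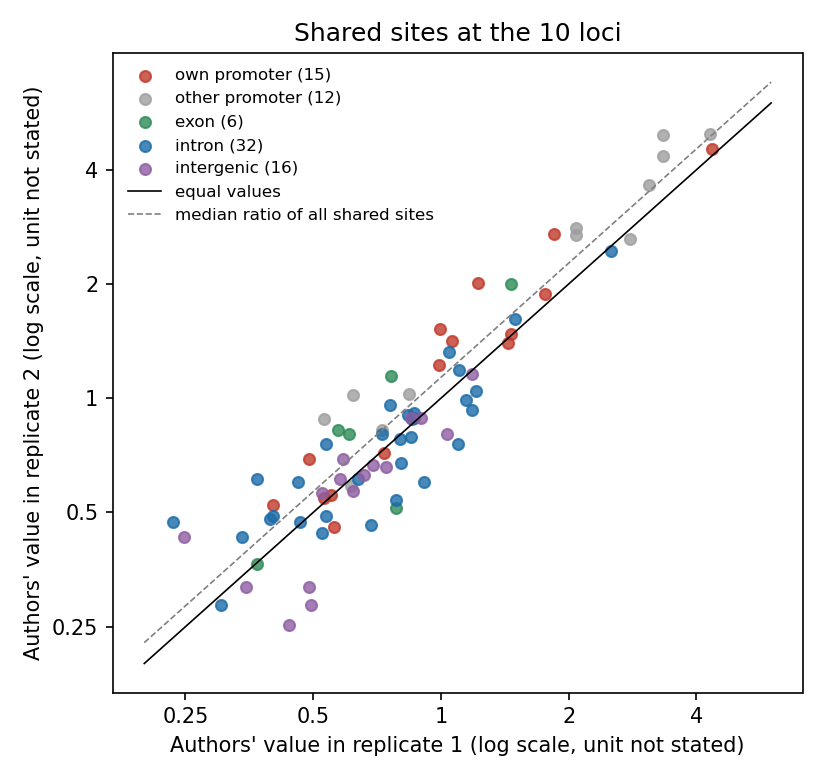
Each point is 1 of the 81 shared sites at the 10 loci, with the authors' value in replicate 1 on the horizontal and in replicate 2 on the vertical axis, both on log scales and without a stated unit. Promoters of other genes (grey) lie mostly above the dashed line, which marks the median ratio of all shared sites (1.14), while sites in introns and between genes scatter on both sides of equal values.

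Among 15 other genes known from granule cells the promoter was open in each replicate at 13, against 64.3% of all protein-coding genes. Plk5, a polo-like kinase family gene, was among those with none in either. The highest were Tiam1, an activator of Rac (6.5), and Rfx3, a regulator of cilia genes (5.26). The median promoter value was 1.41 for the 9 members with both values and 1.34 for these other granule cell genes, of which 10 of the 13 lay below the median of all genes. Among 14 genes known from CA pyramidal cells 11 had one in both, among them the calmodulin-binding protein gene Pcp4 (3.69), while Mpped1 and Iyd had none. The pyramidal cell genes had a median promoter value of 3.21, and 5 of the 11 lay below the median of all genes. Sites outside promoters numbered 2.26 per 100 kb at the median of the 10 members, against 2.59 for the other granule cell genes and 4.33 for the pyramidal cell genes. The lists were chosen by hand and the differences between them were not tested.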

How the data were processed

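DNase-seq was measured in 2 biological replicates of 1 group. Per the deposited file descriptions, the authors called peaks, footprints and cut rates separately from the alignment of each library to mm10. Which aligner and caller they used is not given in the sources at hand. The authors deposited a signal value for every peak without a unit or normalization, and the deposited p-value columns hold false discovery rates, of the cut rate (under 0.05) and of footprints (0.01).

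From these files the longer peak list was used, overlaps of at least 1 bp defined shared sites, and places, counts per 100 kb, CpG ratios (1001 bp) and motif matches were computed with Python 3.11.15, numpy 2.4.6, scipy 1.17.1 and pysam 0.24.0, after a check on simulated intervals. Genes came from GENCODE M21 and sequence from RefSeq GRCm38.p6. Each site had 1 place, with promoters taking precedence over exons, and exons over introns. A footprint motif needed 50% of its letters in footprints of each replicate. Reads from the CAST/EiJ allele may map less well to mm10; this was not tested.

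Members and lists were chosen with earlier results of these data known. All 10 members are named; of the other lists, genes with no promoter peak and the 2 highest are named. Some genes that this rule or the marker lists take are not reported here. Neighbouring genes are named where a described site lies in them or at their promoter. Alternatives were other windows, flanks, peak lists, overlaps, single replicates and, chosen after seeing the data, other sets of transcripts.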

Additional observations from a re-analysis of the deposited data

How the results depend on the processing

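No paired analysis was possible because the study had 1 group only and no test was run. The count of 9 members whose promoter was open in each replicate was 7 to 10 under the windows, lists, transcript sets and single replicates tried. It was 10 with a window of 2500 bp and in replicate 2 alone. The share of all protein-coding genes is given only for the main setting, the transcript sets and the shorter list. In the other settings the count therefore cannot be set against all genes. A promoter value in both replicates could not be had for Pdzd2 and Il16 in the basic transcript set, for Pdzd2 with the starts of protein-coding transcripts, or for Dsp and Tdo2 in the shorter peak list. The other recomputed promoter values mostly rest on the same peaks, and a mean over 2 replicates cannot leave their spread when 1 is dropped, so they say nothing about stability. The median of 7 shared sites per locus was 3.5 in gene bodies alone, 4 with 10 kb either side, 3 in the shorter peak list, 4 in the stronger part of each list (peaks at or above its median value) and 4.5 when each peak had to cover 50% of the other. It was 9.5 to 10 peaks in single replicates. The total of 81 was 48 in gene bodies alone, 40 in the shorter list and 42 in the stronger part, and single replicates had 111 to 128 peaks. The larger count, in replicate 1 without replicate 2, includes peaks that replicate 2 lacked. The share of member sites outside promoters with a footprint in both replicates was 68.5%. It was 95% in the shorter list and 84.4% with 50% cover, and the cause was not tested. Taken over all peaks outside promoters of 1 replicate, shared or not, the share with a footprint of that replicate was 65.3% to 72.3%. Shares over all such sites are not given for these settings. The values therefore cannot be set against the share of all sites in the main setting. Of 90 recomputed motif shares 82 stayed within the binomial interval. These recount overlapping sets of sites, and motifs found at 0 sites had little room to leave it. The count therefore says nothing about stability. CAGATG was at 13.0% in windows of 100 bp and 18.5% in widened footprints, Sox at 1.85% in widened footprints and CTCF at 25% in the shorter list. Rfx was at 0% in windows of 100 bp, widened footprints and the shorter list, and homeodomain at 0% in the shorter list. Motif shares over all sites are not given for these settings. As the unit of the values and the read depth are unknown, values of sites with different width cannot be put on a common scale.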
